A study of Mus musculus with 12 samples.

Results

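A set of 48 genes that act in mitosis and in the G2/M step of the cell cycle was followed in lung CD4+ T cells, the helper T lymphocytes, of neonatal and juvenile mice. The set was chosen by function, with earlier results of these data known. It holds cyclins and CDK1 with the switches that turn them on, mitotic kinases, and checkpoint, centromere and kinetochore genes. Spindle motors, cytokinesis genes, chromosome structure genes and genes of anaphase and ubiquitin complete it. All 48 were among the 19434 genes of the count table, and all 48 were among the 11062 genes that passed the filter on low counts. The mice were C57BL/6NJ of both sexes. They aspirated 2800000 colony-forming units of E. coli or phosphate-buffered saline (PBS) on day 5 of life (neonates) or day 15 (juveniles), and T cells were taken from the lungs 48 h later. The 4 groups were neonates given PBS (NP), neonates given E. coli (NE), juveniles given PBS (JP) and juveniles given E. coli (JE), with 3 RNA libraries each. Every library came from pooled cells of 3 neonatal or 2 juvenile mice, so a value is the mean of a pool and a spread is the spread between pools. The sort beyond CD4 is not described in the sources used here.

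A cell that enters mitosis first accumulates cyclins A and B, which activate CDK1 once phosphatases of the CDC25 family remove its inhibitory phosphates. Condensins then compact the chromosomes, kinetochores couple them to the spindle, the spindle checkpoint delays anaphase until every chromosome is attached, and the anaphase-promoting complex destroys cyclin B and securin. Most of these genes are transcribed in G2 and M phase of dividing cells and are low in resting T cells, and a group of them is held off in quiescent cells and turned on in G2 through the MuvB complex with B-MYB and FOXM1.

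The libraries held 6035445 to 8129983 counts. Expression is given as CPM, counts-per-million values after TMM scaling of the library sizes, and the limit that an empty row sets, 3 counts, came to between 0.374 and 0.494 CPM by library, counting error alone considered. T cell identity genes were abundant in all 12 libraries: Cd3e ran from 1421 to 2033 CPM and Cd4 from 1028 to 1343 CPM. In the juvenile response, however, all 9 T cell identity genes tested had negative values and 6 of them fell, Cd4 included, where 9.42% of all genes tested fell. The lowest value was that of Cd3d, a chain of the T cell receptor complex, which went from 245 ± 56.0 CPM in JP to 145 ± 6.18 CPM in JE (log2 fold change -0.76 ± 0.12 SE, adjusted p = 0.00038). Summed over the 9 genes, means were 6688 ± 382 CPM in JP, 5337 ± 213 in JE, 5945 ± 355 in NP and 5580 ± 133 in NE (SD, n = 3 each), and 0 of the 9 passed in neonates by edgeR (2 at an unadjusted p under 0.05), DESeq2 or limma voom. The part of this shift in the mitosis results was not tested. Libraries of a group differed by more than sampling of counts allows, with chi-square values of 4 to 20.7 per degree of freedom, so none was a copy of another. A pair of libraries stood apart in genes of immature, thymocyte-like T cells: Rag1, a recombinase of developing lymphocytes, had 344, 76.0 and 47.5 CPM in NP libraries 1, 2 and 3, 0.255, 42.8 and 8.49 in NE, 13.7, 169.9 and 29.5 in JP and 104, 145 and 102 in JE. NP library 1 and JP library 2 were the highest of their groups in Rag1, in Rag2 and in Dntt, and both were also the highest of their groups in most of the mitosis genes. Summed over all 14 immature T cell genes in the table, these libraries were again the highest of their groups, with 1608 and 1324 CPM. Results are therefore also given without these 2 libraries.

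The juvenile PBS libraries had the least mitosis RNA of the 4 groups. Summed over the 48 genes, NP libraries 1, 2 and 3 had 9757, 8237 and 8473 CPM, NE libraries 7590, 7223 and 7652, JP libraries 4761, 7214 and 4394, and JE libraries 10110, 8801 and 7211. The groups' means were 8822 ± 818 CPM in NP, 7488 ± 232 in NE, 5456 ± 1530 in JP and 8707 ± 1450 in JE (SD, n = 3 each). JE was 1.6 times JP and NP was 1.62 times JP, and these ratios were 1.9 and 1.93 without JP library 2, while NE was 0.849 times NP. JP library 2 and JE library 3 were nearly equal in this sum, so JP and JE overlapped there, and JP libraries 1 and 3 lay below all others. In bulk RNA, fewer cells in mitosis and less mitosis RNA per cell cannot be told apart.

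**Figure D1:**
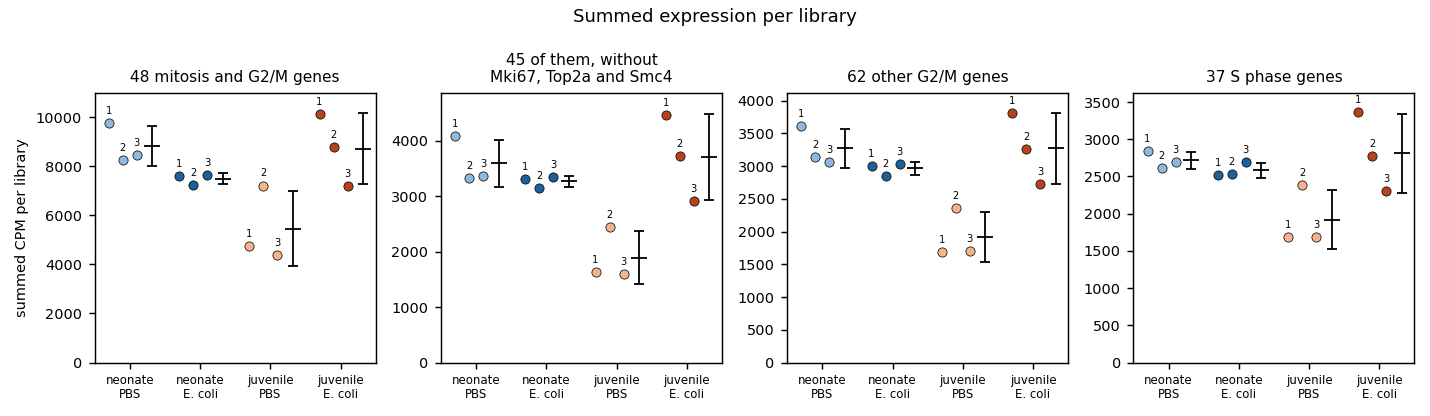
Summed CPM (vertical axis, linear from 0) of the 48 mitosis and G2/M genes, of 45 of them without the 3 most abundant, of 62 other G2/M genes and of 37 S phase genes, in each of 12 libraries. Numbered points are libraries, and the bar with whiskers is the mean ± SD of 3; JP libraries 1 and 3 lie lowest in all 4 panels, at 4761 and 4394 CPM for the 48 genes.

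A few genes make up most of that sum. Smc4, Mki67 and Top2a had mean levels from 510.5 to 2395 CPM in the 4 groups, and without them the sum of the other 45 genes was 3591 ± 429 CPM in NP, 3270 ± 101 in NE, 1890 ± 481 in JP and 3704 ± 775 in JE. That remainder was 1.96 times as high in JE as in JP and 1.9 times as high in NP as in JP. Per kilobase of annotated exon, the scale on which genes can be compared, Smc4 was highest with 460 CPM per kilobase in NP and 332 in JE. Mki67 followed with 178 in NP and 213 in JE, and Top2a with 116 and 125. Cdk1, the kinase at the centre of the pathway, had only 3.77 CPM per kilobase in NP and 1.99 in JP, and Cdc25c, with 2.05 and 1.13, had the lowest level per kilobase of the set in both groups.

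The same ordering of groups recurred from gene to gene. JP had the lowest of the 4 group means for 45 of the 48 genes, against 25% of all genes tested; the exceptions were Cdc25b, Smc4 and Pttg1. All 3 JP libraries lay below the other 9 libraries for 32 genes, against 3.58% of all genes tested. JP libraries 1 and 3 lay below the 9 libraries of the other groups for 44 genes, against 8.15% of all genes tested. The highest mean was in JE for 27 genes, in NP for 20 and in NE for 1.

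**Figure D2:**
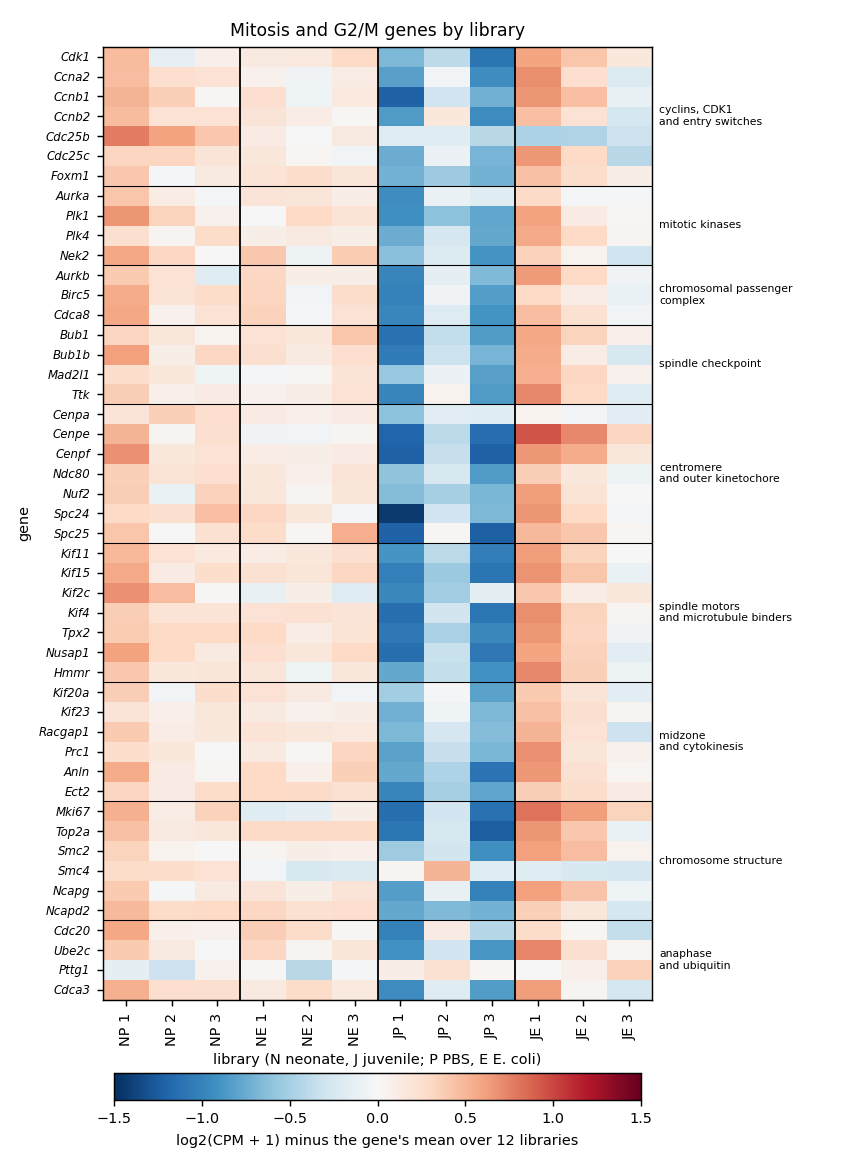
Heat map of the 48 genes (rows, grouped by role) in 12 libraries (columns), coloured by log2(CPM + 1) minus the gene's mean over the 12 libraries. JP libraries 1 and 3 are below the gene's mean in nearly all rows, JP library 2 is closer to it, and the rows of Cdc25b, Smc4 and Pttg1 differ from the rest.

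Promoters are shown because so many of these genes moved together. In the RefSeq table of promoters (GRCm38.p6, 250 bases before to 50 after the start), 40 of the 48 genes had an entry. The letters TTTGAA, the cell cycle genes homology region through which MuvB complexes bind, were found on either strand in 29 of the 40 promoters (72.5%), against 18.1% of all 27025 promoters and 12% of the 8324 promoters of genes tested. Its variant TTTAAA was in 10 (25%), against 13.2% of all promoters. CCAAT, the box bound by NF-Y, was in 30 (75%), against 37.9% of all promoters, and in 21 of 31 promoters of S phase genes (67.7%). A CCAAT box together with TTTGAA or TTTAAA was in 27 (67.5%), against 10.9%. Of the 31 promoters of S phase genes 4 held TTTGAA (12.9%). Of 49 promoters of other G2/M genes 27 held TTTGAA (55.1%) and 32 held CCAAT (65.3%). The E2F letters TTTCGCGC were in 6 of those 31 (19.4%), in 1 of the 40 mitosis promoters (2.5%) and in 0.318% of all promoters. Both strands were searched, TTTAAA is its own complement, and none of these motifs contains another. A match is a description of the letters only.

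The 150 bases before the start follow for 5 genes whose window touches no annotated exon. TTTGAA (or its complement TTCAAA) and CCAAT (or ATTGG) are in capitals. The first 4 genes rose in juveniles given E. coli, and among the windows free of exons only theirs hold both TTTGAA and CCAAT. Most of those windows hold no TTTGAA, so the 4 are not typical. Kif2c and Plk4, which also rose and are not printed, hold no CCAAT there, with 1 TTTGAA in Kif2c and 1 TTTAAA in Plk4. Cdc25b, which did not rise, holds a CCAAT box and neither TTTGAA nor TTTAAA. These letters did not separate the genes that rose from the others: Bub1 and Nek2, which also held CCAAT alone, rose, as did Mad2l1, Nuf2 and Nusap1, which held none of the 3 motifs, while Aurka, Ccnb2, Cenpa and Cdc20 held both TTTGAA and CCAAT and did not pass. The windows lie at chr7:135716380-135716529 on the minus strand, chr11:99024190-99024339 on the minus strand, chr19:37376232-37376381 on the plus strand, chr4:52439071-52439220 on the plus strand and chr2:131186798-131186947 on the plus strand of GRCm38.p6, and each is written 5′ to 3′ on the gene's strand.
Mki67: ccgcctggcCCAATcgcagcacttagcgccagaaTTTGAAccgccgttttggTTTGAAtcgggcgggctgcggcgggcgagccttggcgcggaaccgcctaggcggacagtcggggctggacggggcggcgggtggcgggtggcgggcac
Top2a: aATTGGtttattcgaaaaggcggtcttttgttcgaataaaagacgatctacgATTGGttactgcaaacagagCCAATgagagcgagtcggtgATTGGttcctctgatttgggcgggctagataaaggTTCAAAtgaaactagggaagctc
Kif11: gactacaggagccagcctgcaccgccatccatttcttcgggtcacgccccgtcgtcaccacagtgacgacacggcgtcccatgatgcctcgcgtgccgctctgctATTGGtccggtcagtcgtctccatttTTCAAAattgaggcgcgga
Smc2: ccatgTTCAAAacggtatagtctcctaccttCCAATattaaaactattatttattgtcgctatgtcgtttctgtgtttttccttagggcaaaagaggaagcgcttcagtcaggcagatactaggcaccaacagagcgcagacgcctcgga
Cdc25b: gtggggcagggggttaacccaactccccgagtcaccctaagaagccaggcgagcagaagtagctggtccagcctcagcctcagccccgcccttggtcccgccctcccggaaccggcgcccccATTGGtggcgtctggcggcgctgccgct
Mki67 holds 2 TTTGAA and 1 CCAAT in this window, Top2a holds 1 and 4, and Kif11 and Smc2 hold 1 of each. In Kif11 and Top2a the TTTGAA letters begin 19 and 23 bases before the start, and in Mki67 they begin 116 and 98 bases before it.

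The first comparison asked how the juvenile T cells differed 48 h after E. coli. Of the 48 genes, 41 rose and 1 fell in juveniles given E. coli against juveniles given PBS (edgeR quasi-likelihood test, adjusted p under 0.05), where 15.4% of all genes tested rose and 9.42% fell. The median log2 fold change of the 48 genes was 0.93, against -0.01 over all genes tested. In 34 genes all 3 JE libraries were above all 3 JP libraries, against 20.6% of all genes tested. The genes that did not pass were Ccnb2, Cdc25b, Aurka, Cenpa, Cdc20 and Pttg1. With upper-quartile scaling the calls over all genes were 1468 higher and 1415 lower in place of 1705 and 1042, and 39 of the 48 genes rose.

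Among the chromosome structure genes, Mki67, which encodes the coat protein of mitotic chromosomes used as the Ki-67 proliferation marker, rose most. At chr7:135689784-135716361, it had 645, 1161 and 648 CPM in the JP libraries and 2474, 2184 and 1780 CPM in the JE libraries. The groups did not overlap, and the fold was 2.63 (log2 fold change 1.39 ± 0.19 SE, adjusted p = 0.000107). Top2a (chr11:98992943-99024189), the topoisomerase that untangles sister chromatids, had 414, 746 and 372 CPM in JP and 1395, 1165 and 824 CPM in JE. Here too every JE library was above every JP library, with a fold of 2.21 (log2 fold change 1.14 ± 0.22 SE, adjusted p = 0.00128). The condensin genes Smc2, Ncapg and Ncapd2 rose with log2 fold changes of 0.96, 0.97 and 0.83. Their partner Smc4 (chr3:69004738-69034623), the other ATPase of condensin, went the other way, with 2076, 2863 and 1777 CPM in JP and 1774, 1722 and 1691 CPM in JE. All JE libraries of Smc4 were below all JP libraries, by a narrow margin from JP library 3, and the fall (log2 fold change -0.37 ± 0.12 SE, adjusted p = 0.0397) was lost in 6 of 21 alternatives, among them without JP library 2 and without each JE library, where the adjusted p reached 0.161.

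In the group of cyclins, CDK1 and entry switches, 5 of 7 rose. Cdk1 (chr10:69335146-69352938), the mitotic kinase, had 9.94, 12.4 and 7.17 CPM in JP and 25.3, 22.4 and 18.4 CPM in JE, with no overlap (log2 fold change 1.17 ± 0.21 SE, adjusted p = 0.000802). Ccnb1, cyclin B1, had 13.8, 27.4 and 19.9 CPM in JP and 53.4, 46.1 and 30.9 CPM in JE (log2 fold change 1.10 ± 0.23 SE, adjusted p = 0.00279). The lowest JE library of Ccnb1 was only just above the highest JP library. Ccna2, cyclin A2, rose by 0.84 ± 0.22 on the log2 scale with groups that overlapped, and Cdc25c, a CDK1-activating phosphatase, by 0.82 ± 0.28. The Cdc25c groups overlapped, and its call (adjusted p = 0.0424) was lost in 13 of 21 alternatives, among them without any NP or NE library and without JP library 1, JP library 3, JE library 1 or JE library 2, with adjusted p up to 0.249. Foxm1, the transcription factor of G2/M genes, had 30.7, 34.4 and 30.4 CPM in JP and 68.9, 61.2 and 54.0 CPM in JE. Its JP libraries were close to each other and well below JE (log2 fold change 0.95 ± 0.13 SE, adjusted p = 8.51e-05). Ccnb2, cyclin B2, did not pass, with a log2 fold change of 0.63 ± 0.23 (adjusted p = 0.0615). Cdc25b (chr2:131186949-131198497), another CDK1-activating phosphatase, had 47.0, 47.6 and 40.2 CPM in JP and 38.5, 39.1 and 43.3 CPM in JE. The groups overlapped and the difference of -0.16 ± 0.12 did not pass (adjusted p = 0.352).

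Of the 4 mitotic kinases 3 rose. Plk1, the polo-like kinase of mitotic entry and spindle assembly, had 10.1, 12.7 and 11.2 CPM in JP and 30.8, 21.7 and 20.1 CPM in JE (log2 fold change 1.10 ± 0.20 SE, adjusted p = 0.000875). Plk4, the kinase of centriole duplication, rose by 0.90 ± 0.15 and Nek2, a centrosome kinase, by 0.63 ± 0.21 on the log2 scale. The Nek2 groups overlapped, and its call (adjusted p = 0.0425) was lost in 11 of 21 alternatives, among them without NP library 1 or 2, NE library 1 or 3, JP library 1 or 3, or JE library 1 or 2, with adjusted p up to 0.225. Aurka, the spindle pole kinase, had 6.48, 12.4 and 11.6 CPM in JP and 16.5, 13.1 and 13.1 CPM in JE, and its log2 fold change of 0.49 ± 0.21 did not pass (adjusted p = 0.107). JP library 1 of Aurka was low and the other 2 were close to the JE libraries. All 3 genes of the set that belong to the chromosomal passenger complex, which corrects faulty attachments at the centromere, rose. Its kinase Aurkb had 12.2, 22.9 and 15.6 CPM in JP and 40.0, 31.4 and 24.4 CPM in JE (log2 fold change 0.92 ± 0.22 SE, adjusted p = 0.00737), with no overlap. Its subunits Birc5 and Cdca8 rose by 0.71 ± 0.21 and 0.90 ± 0.20 on the log2 scale, and the JP and JE libraries of Birc5 overlapped.

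All 4 spindle checkpoint genes rose. Bub1, a checkpoint kinase at the kinetochore, had 19.4, 33.6 and 23.8 CPM in JP and 65.5, 55.1 and 45.9 CPM in JE, with no overlap (log2 fold change 1.12 ± 0.18 SE, adjusted p = 0.000324). Mad2l1, the checkpoint protein that holds back CDC20, had 40.3, 56.4 and 33.8 CPM in JP and 88.0, 74.6 and 62.8 CPM in JE (log2 fold change 0.79 ± 0.17 SE, adjusted p = 0.00318). Bub1b and the kinase Ttk rose by 0.86 ± 0.20 and 0.91 ± 0.26, and the Ttk groups overlapped through JP library 2.

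Of the 7 centromere and outer kinetochore genes 6 rose, and the largest change of all 48 genes was here. Cenpe (chr3:135212537-135273611), the kinesin that carries chromosomes to the spindle equator, had 85.6, 149 and 88.3 CPM in JP and 380.1, 325 and 245 CPM in JE. The lowest JE library lay well above the highest JP library, and the fold between groups was 2.95 (log2 fold change 1.56 ± 0.19 SE, adjusted p = 4.08e-05). Cenpf, a large kinetochore and nuclear matrix protein, had 90.6, 167 and 90.5 CPM in JP and 334, 313 and 238 CPM in JE (log2 fold change 1.35 ± 0.21 SE, adjusted p = 0.000242). The genes of the NDC80 complex, which grips microtubule ends, rose together: Ndc80 by 0.72 ± 0.14, Nuf2 by 0.95 ± 0.17, Spc24 by 1.16 ± 0.25 and Spc25 by 1.06 ± 0.29 on the log2 scale. Cenpa, the histone H3 variant that marks the centromere, had 50.1, 68.7 and 67.9 CPM in JP and 79.8, 74.7 and 69.1 CPM in JE. Every JE library was above every JP library, yet the change of 0.26 ± 0.12 did not pass (adjusted p = 0.115).

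All 7 spindle motors and microtubule binders rose, and none overlapped between JP and JE. Kif11 (chr19:37376403-37421859), the motor that pushes spindle poles apart, had 114, 158 and 101 CPM in JP and 325, 265 and 209 CPM in JE (log2 fold change 1.10 ± 0.17 SE, adjusted p = 0.000214). Tpx2, which builds microtubules and activates AURKA, had 43.1, 65.4 and 46.5 CPM in JP and 144, 115 and 88.7 CPM in JE (log2 fold change 1.17 ± 0.17 SE, adjusted p = 0.000135). Kif15, Kif4, Nusap1, Hmmr and Kif2c rose by 1.26, 1.18, 1.09, 1.04 and 0.81 on the log2 scale. All 6 midzone and cytokinesis genes rose as well. Prc1, the bundler of midzone microtubules, had 33.3, 46.0 and 36.2 CPM in JP and 94.8, 66.7 and 61.2 CPM in JE (log2 fold change 0.95 ± 0.16 SE, adjusted p = 0.000683), and Kif23, a motor of the same structure, had 33.4, 53.4 and 34.4 and 76.1, 65.9 and 57.2 (log2 fold change 0.72 ± 0.15 SE, adjusted p = 0.00354). Both were higher in every JE library than in any JP library. Ect2, which activates RhoA for the contractile ring, and Anln, a scaffold of that ring, rose by 1.05 ± 0.13 and 1.12 ± 0.20 on the log2 scale. Racgap1, the partner of KIF23, rose by 0.70 ± 0.17 and the motor gene Kif20a by 0.59 ± 0.18, both with groups that overlapped.

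Only 2 of the 4 genes grouped under anaphase and ubiquitin rose. Ube2c, the ubiquitin-conjugating enzyme of the anaphase-promoting complex, had 26.5, 41.0 and 27.1 CPM in JP and 84.4, 59.9 and 51.6 CPM in JE (log2 fold change 1.05 ± 0.19 SE, adjusted p = 0.00102). Cdca3, a trigger of mitotic entry, rose by 0.85 ± 0.23 with groups that overlapped. Cdc20, the activator of that complex, had 7.20, 17.0 and 11.3 CPM in JP and 19.1, 15.9 and 11.9 CPM in JE, which overlapped (log2 fold change 0.41 ± 0.26 SE, adjusted p = 0.272). Pttg1, securin, the inhibitor of separase, had 17.0, 18.6 and 16.1 CPM in JP and 15.7, 16.7 and 20.3 CPM in JE, also overlapping, with a difference of 0.03 ± 0.17 (adjusted p = 0.919). Leaving out 1 library at a time, between 29 (without JE library 1) and 45 (without JP library 2) of the 48 genes rose, and 45 rose without NP library 1 and JP library 2. The calls of 29 of the 42 genes held in all 21 alternatives.

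**Figure D3:**
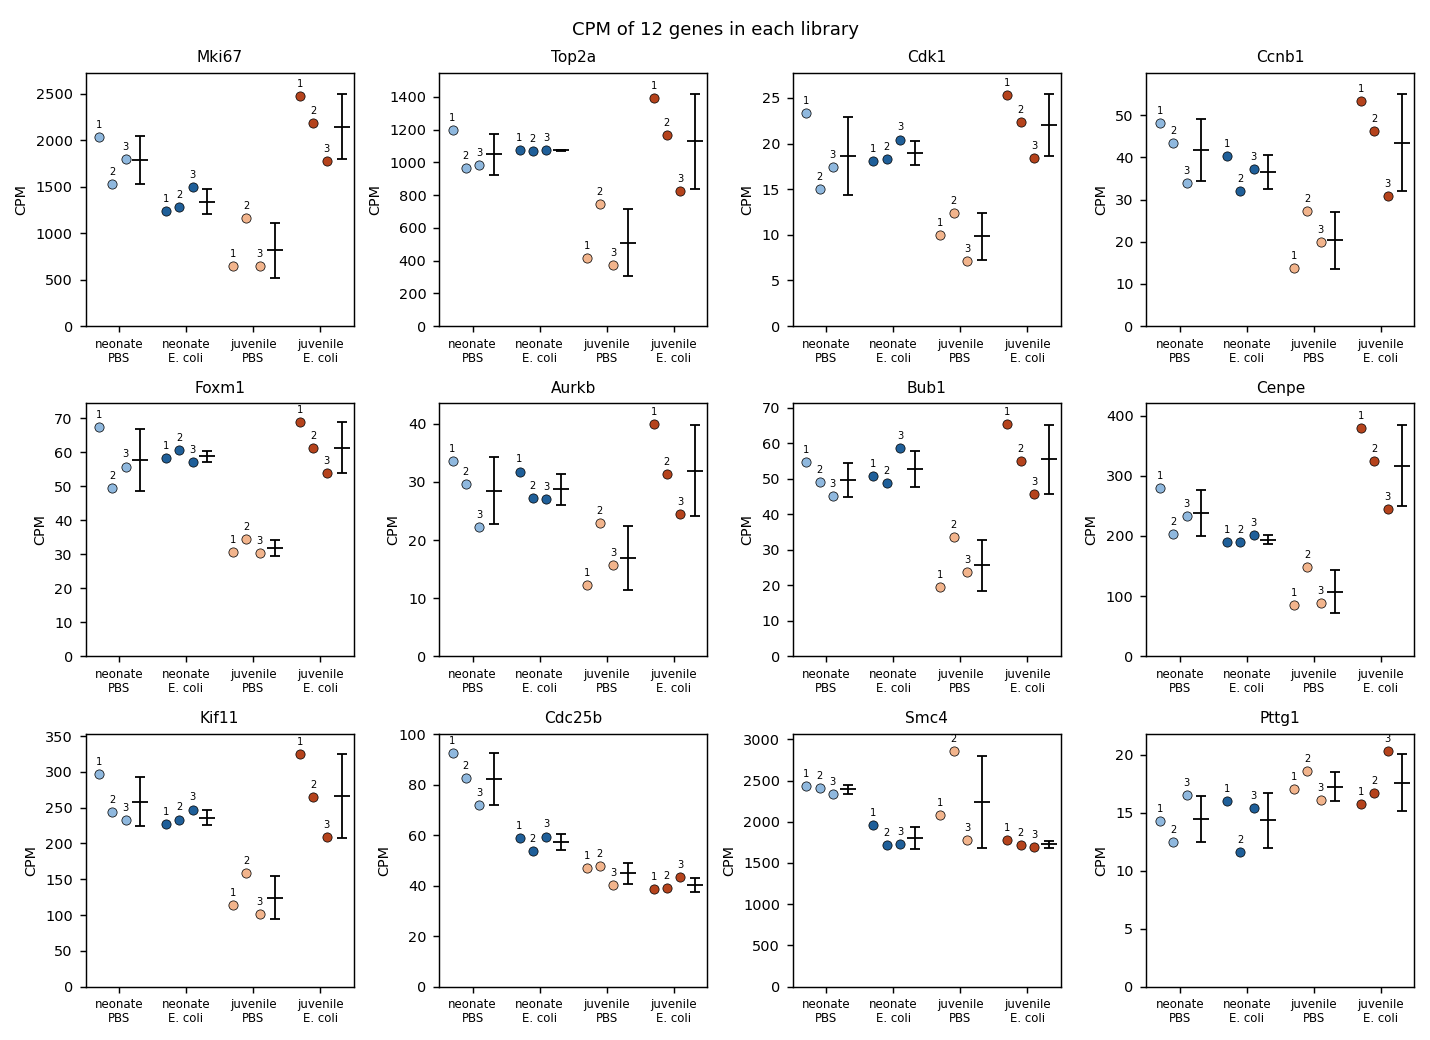
CPM (vertical axes, linear from 0) of 12 of the genes in each library, by group. Numbered points are libraries and the bar with whiskers is the mean ± SD of 3; the first 9 genes have their lowest mean in juveniles given PBS, while Cdc25b is highest in neonates given PBS, Smc4 has lower means after E. coli at both ages and Pttg1 overlaps between groups.

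The next comparison put the same question to neonates, where Cdc25b alone of the 48 genes passed the test. In NE against NP, 0 of the 48 genes rose and 1 fell, where 1.05% of all genes tested rose and 0.145% fell. Of the 48, 4 had an unadjusted p under 0.05, DESeq2 also called 0 higher and 1 lower, and limma voom 0 higher and 2 lower. The median log2 fold change was -0.09, against -0.0027 over all genes tested. It was 0.0039 without NP library 1 and 0.22 with a score of immature T cell genes as a term in the fit, so its sign was not stable. All 3 NE libraries were below all 3 NP libraries for 10 genes, against 10.6% of all genes tested. They were above for 0 of the 48, against 11.2%.

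The gene that fell was Cdc25b, with 92.7, 82.5 and 72.0 CPM in the NP libraries and 58.7, 53.7 and 59.5 CPM in the NE libraries. The groups did not overlap (log2 fold change -0.53 ± 0.11 SE, adjusted p = 0.0288), and the call was lost in 8 of 21 alternatives, among them the removal of NP library 1, NP library 2 or any NE library, with adjusted p up to 0.228. Smc4 had 2437, 2412 and 2336 CPM in NP and 1961, 1714 and 1735 CPM in NE. Every NE library was below every NP library, but the difference of -0.41 ± 0.12 did not pass (adjusted p = 0.164). Kif2c, the depolymerase that releases faulty attachments, and Mki67 were the other genes with larger negative values, -0.51 ± 0.22 (adjusted p = 0.357) and -0.41 ± 0.19 (adjusted p = 0.402). Mki67 had 2039, 1528 and 1795 CPM in NP and 1243, 1283 and 1498 CPM in NE. Its NE library 3 came close to NP library 2.

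The 3 genes that rose most in juveniles, Cenpe, Mki67 and Cenpf, had negative values in neonates that did not pass, -0.30 ± 0.19, -0.41 ± 0.19 and -0.27 ± 0.20 (adjusted p = 0.603, 0.402 and 0.675), and in each of them every NE library was below every NP library by a narrow margin. Top2a, Cdk1 and Foxm1 had values near 0. Top2a had 1195, 966 and 987 CPM in NP and 1074, 1071 and 1076 CPM in NE (log2 fold change 0.03 ± 0.21 SE, adjusted p = 0.979). The NE libraries of Top2a were almost identical and lay inside the NP range. Cdk1 had 23.4, 15.0 and 17.5 CPM in NP and 18.1, 18.3 and 20.4 CPM in NE (log2 fold change 0.03 ± 0.20 SE, adjusted p = 0.981), and Foxm1 had 67.5, 49.6 and 55.9 and 58.5, 60.7 and 57.3 (log2 fold change 0.03 ± 0.12 SE, adjusted p = 0.963). The 3 highest values of the set were those of Bub1 (0.08), Spc25 (0.08) and Top2a (0.03), all smaller than their SE of 0.17, 0.27 and 0.21.

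**Figure D4:**
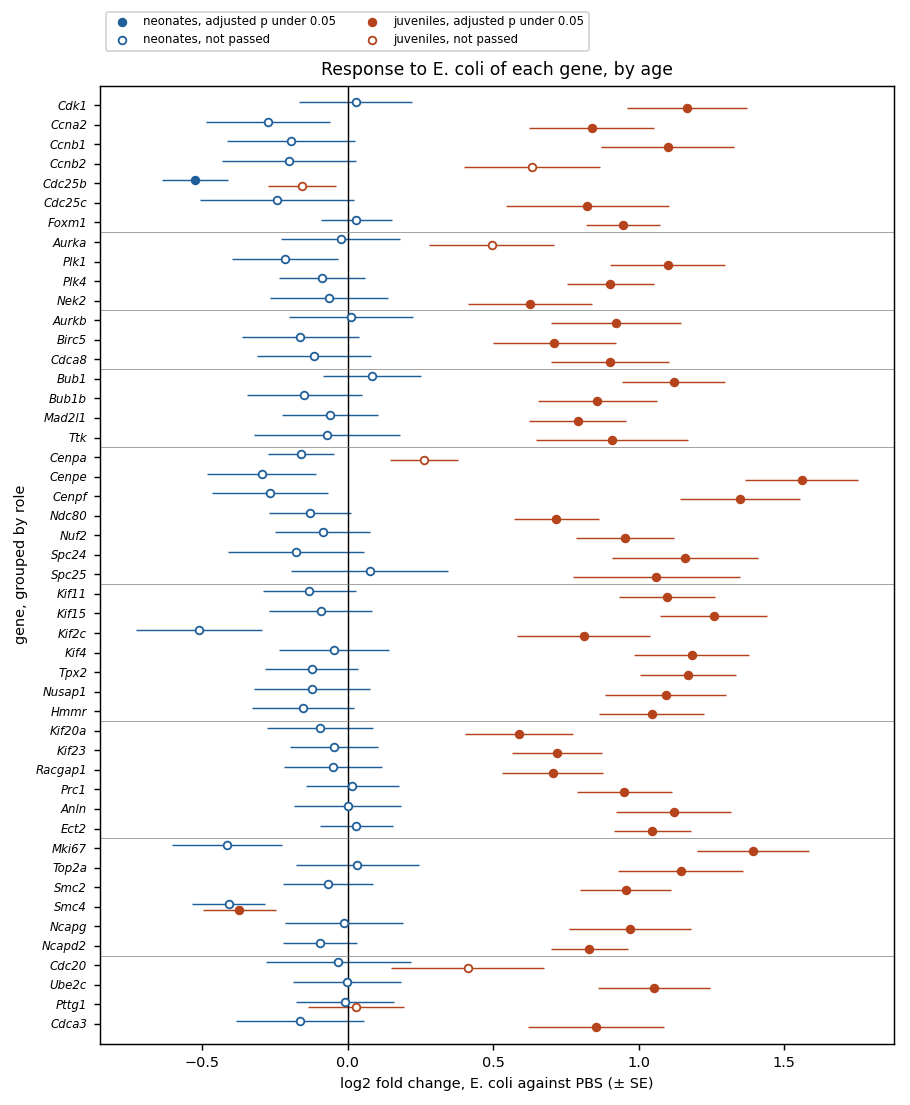
Log2 fold change of E. coli against PBS (horizontal axis, ± SE) for each of the 48 genes, in neonates (blue) and juveniles (red), with filled points where the adjusted p was under 0.05. Juvenile points run from -0.37 (Smc4) to 1.56 (Cenpe) and neonatal points from -0.53 (Cdc25b) to 0.08 (Bub1), and the ages are close for Smc4 and Pttg1.

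The difference between the 2 responses was tested directly. It was larger in juveniles for 31 of the 48 genes and smaller for 0, where 5.05% of all genes tested were larger and 1.94% smaller. Its median over the 48 genes was 1.02 on the log2 scale, against -0.01 over all genes tested. The largest differences were those of Cenpe (1.86 ± 0.27, adjusted p = 0.00137), Mki67 (1.81 ± 0.27, adjusted p = 0.00157) and Cenpf (1.62 ± 0.29, adjusted p = 0.00392), and these 3 calls held in all 20 alternatives. All 7 spindle motors and microtubule binders passed, from 1.20 for Hmmr to 1.35 for Kif15. The smallest differences were those of Smc4 (0.04 ± 0.18), Pttg1 (0.04 ± 0.24) and Cdc25b (0.37 ± 0.16), none of which passed (adjusted p = 0.93, 0.946 and 0.19). This count moved with single libraries: it was 13 without NP library 1, 13 without JE library 1, 15 without JP library 1, NE library 1 or NE library 2, 20 without JE library 2 and 43 without JP library 2. Without NP library 1 and JP library 2 together it was 39. With a score of immature T cell genes as a term in the fit it was 3, and the juvenile response then had 37 higher.

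The comparison of PBS groups asked whether the ages differed without infection. In NP against JP, 37 of the 48 genes were higher in neonates and 0 lower, where 2.32% of all genes tested were higher and 1.75% lower. The median log2 difference was 0.91, against -0.01 over all genes tested. In 42 genes all NP libraries were above all JP libraries, against 9.82% of all genes tested, and in 0 they were all below, against 10.2%. This comparison, the juvenile response and the difference of responses share the 3 JP libraries, so their values are not independent of each other. The 3 genes with the largest values were Cenpf, with 342, 237 and 246 CPM in NP against 90.6, 167 and 90.5 CPM in JP (log2 fold change 1.25 ± 0.21 SE, adjusted p = 0.00349), Kif15 (log2 fold change 1.22 ± 0.18 SE, adjusted p = 0.00175) and Plk1 (log2 fold change 1.21 ± 0.20 SE, adjusted p = 0.00321). Cenpf was higher in every NP library than in any JP library.

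Mki67 was higher in NP than in JP by 1.13 ± 0.19 (adjusted p = 0.0042), Top2a by 1.04 ± 0.22 (adjusted p = 0.0129) and Cdk1 by 0.92 ± 0.21 (adjusted p = 0.0211) on the log2 scale. Ncapd2, a regulatory subunit of condensin I, had 123, 105 and 108 CPM in NP and 50.9, 54.7 and 52.9 CPM in JP. Its JP libraries were close together, library 2 included, at less than the lowest value of any other group (log2 fold change 1.08 ± 0.13 SE, adjusted p = 0.000396). Cdc25b, which did not pass in the juvenile response, was higher in NP than in JP with no overlap (log2 fold change 0.88 ± 0.11 SE, adjusted p = 0.000552). Pttg1 had 14.3, 12.5 and 16.5 CPM in NP and 17.0, 18.6 and 16.1 CPM in JP, and its difference of -0.26 ± 0.17 was the only negative one (adjusted p = 0.472). Smc4 (0.10 ± 0.12) and Cenpa (0.58 ± 0.12) had the next smallest values, of which Cenpa passed (adjusted p = 0.01) and Smc4 did not (adjusted p = 0.753). The count of 37 was 15 without NP library 1, 19 without JP library 1, 24 without JP library 3 and 46 without JP library 2, and it was 41 without NP library 1 and JP library 2. The calls of 14 of the 37 genes held in all 21 alternatives.

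After E. coli few of these genes passed the test between the ages. In NE against JE 1 of the 48 was higher in neonates and 2 were lower, where 6.42% of all genes tested were higher and 11.3% lower. The median log2 difference was -0.13, against 0.02 over all genes tested. It was 0.06 without JE library 1, -0.25 without JE library 3 and 0.24 with the immature T cell score as a term, so neither its sign nor its size was stable. Cdc25b was the higher gene, with 58.7, 53.7 and 59.5 CPM in NE and 38.5, 39.1 and 43.3 CPM in JE. The groups did not overlap (log2 fold change 0.51 ± 0.11 SE, adjusted p = 0.00603), and the call held in all 21 alternatives. The lower genes were Cenpe, with 189, 191 and 202 CPM in NE and 380.1, 325 and 245 CPM in JE (log2 fold change -0.71 ± 0.19 SE, adjusted p = 0.0168), and Mki67, with 1243, 1283 and 1498 and 2474, 2184 and 1780 (log2 fold change -0.68 ± 0.19 SE, adjusted p = 0.0222). In both every NE library was below every JE library. These 2 calls were lost without NE library 1, NE library 2, JE library 1 or JE library 2 and with the immature T cell score as a term, with adjusted p up to 0.418 and 0.48. Of the genes that did not pass, Cenpf had the next lowest value, -0.37 ± 0.20 (adjusted p = 0.228), and Cdc20 and Nek2 the next highest, 0.23 ± 0.25 and 0.20 ± 0.20 (adjusted p = 0.576 and 0.557).

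Cdc25b, Smc4 and Pttg1 had other orders of the 4 groups. Cdc25b was highest in NP and lowest in JE, with 82.4 ± 10.3 CPM in NP, 57.3 ± 3.12 in NE, 44.9 ± 4.13 in JP and 40.3 ± 2.65 in JE (SD, n = 3 each). NP lay above NE and NE above JP with no overlap, while JP and JE overlapped. Smc4 had 2395 ± 52.8 CPM in NP, 1803 ± 137 in NE, 2238 ± 561 in JP and 1729 ± 41.9 in JE, with JP library 2 the highest of all 12. Pttg1 had 14.4 ± 2.00 CPM in NP, 14.3 ± 2.38 in NE, 17.2 ± 1.28 in JP and 17.6 ± 2.43 in JE, and all 4 groups overlapped with a neighbour. Smc4 and Pttg1 were not called between the ages in either condition.

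Within a group the genes of the set varied as a block. JP library 2 was the highest of its group for 47 of the 48 genes, with a median ratio of 1.5 to the mean of the other 2 libraries, where it was the highest for 40.6% of all genes. JE library 1 was the highest of its group for 46 genes (median ratio 1.35) and JE library 3 the lowest for 45 (median ratio 0.721), where these libraries took those places for 35.2% and 39.6% of all genes. NP library 1 was the highest for 43 genes (median ratio 1.23), against 34.1% of all genes. The NE libraries had no such order, with NE library 1 the highest for 21 genes and NE library 3 for 20.

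Genes of immature T cells moved with some of these libraries. Summed over 14 of them, NP libraries had 971.7 to 1608 CPM, NE 866.1 to 938.1, JP 789.3 to 1324 and JE 1073 to 1209. The highest value of NP was that of library 1 and the highest of JP that of library 2. Of these 14 genes 2 rose and 2 fell in the juvenile response, where 15.4% of all genes tested rose and 9.42% fell. Limma voom called 9 of the 14 higher and 1 lower, where it called 2531 and 1949 of all 11062 genes. In the neonatal response 0 of the 14 passed by edgeR, but 8 had an unadjusted p under 0.05, against 1327 of all 11062 genes. For 8 of the 14 all NE libraries were below all NP libraries, against 10.6% of all genes tested, and for 0 they were above. In NE against JE 1 was higher and 3 were lower, where 6.42% of all genes tested were higher and 11.3% lower. None of the 14 was at 0 in every library, and Rag1 was higher in all JE libraries than in JP libraries 1 and 3. With NP library 1 and JP library 2 left out, 45 of the 48 mitosis genes rose in juveniles. In that setting 10 of the 14 immature T cell genes rose too and 1 fell, where 1899 of 11264 genes tested rose and 1276 fell. Leaving out these libraries therefore does not set the immature T cell genes aside. With the immature T cell score as a term, 37 of the 48 mitosis genes rose. Regulatory T cell genes moved with the juvenile response too: summed over 7 genes they ran from 1257 to 1490 CPM in JP and from 2582 to 4238 CPM in JE, and from 924.5 to 1493 CPM in the neonatal groups. All 7 rose in juveniles, against 15.4% of all genes tested. In neonates 0 of the 7 passed by edgeR, with 3 at an unadjusted p under 0.05. The juvenile response was the larger for 5 of the 7, against 5.05% of all genes tested. All 7 were lower in NE than in JE, against 11.3%. With the immature T cell score as a term 5 of the 7 had a larger juvenile response, where 125 of 11062 genes did. The part of regulatory T cells in the result was not tested.

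**Figure D5:**
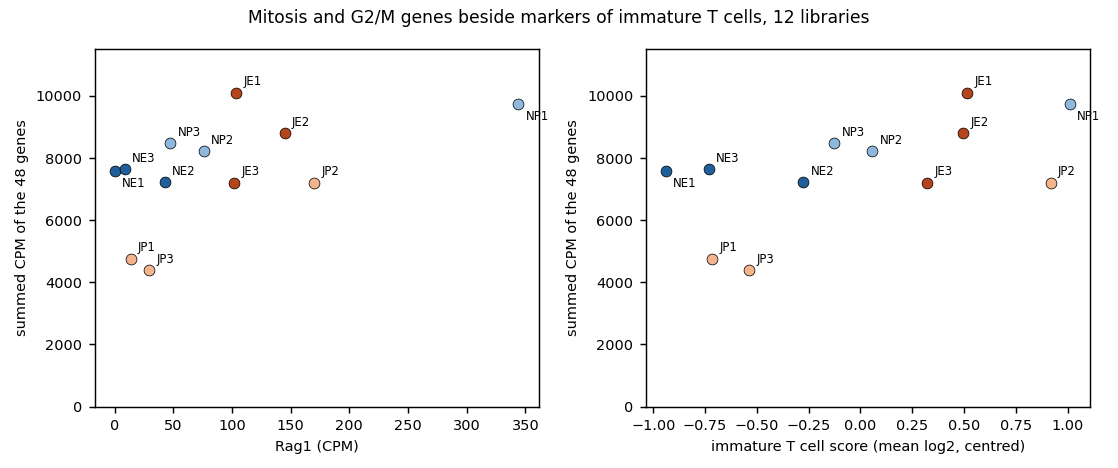
Summed CPM of the 48 genes (vertical axes, linear from 0) against Rag1 (left, CPM) and against a score of immature T cell genes (right, mean of centred log2 values), for 12 libraries. NP1 has the highest Rag1 (344 CPM) and the second highest sum, and JP2 lies above JP1 and JP3 in both measures. NE1 and NE3 have little Rag1, NE2 has more of it than JP1 and JP3, and the NE sums are 7223 to 7652 CPM.

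Markers of other cells were low beside those of T cells but not constant. Monocyte and macrophage genes, of which 8 of 9 tested rose in juveniles (15.4% of all genes tested) and 1 in neonates (1.05%), summed to 106 to 194 CPM in NP, 157 to 284 in NE, 93.8 to 218 in JP and 260.2 to 529 in JE. Dendritic cell and MHC class II genes, of which 6 of 10 rose in juveniles, summed to 119 to 176 CPM in NP, 154 to 183 in NE, 222.5 to 339 in JP and 485 to 589 in JE. Genes of NK and innate lymphoid cells, of which 1 of 6 rose in juveniles, near the share of all genes, summed to 27.0 to 28.4 CPM in NP, 25.3 to 57.2 in NE, 70.3 to 101 in JP and 140.6 to 163 in JE. In each of these lists JE had the highest mean of the 4 groups. Neutrophil genes, of which 3 of 4 tested rose at both ages, summed to at most 3.17 CPM in any PBS library and to between 8.51 and 50.4 CPM in the E. coli libraries, with Elane at 0 in all 12. B cell genes summed to 34.2 to 75.3 CPM over all libraries.

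Endothelial and lung epithelial genes had positive medians in the same 3 comparisons as the mitosis genes. They were not alone in this. In the juvenile response, the difference of responses and NP against JP, medians were 0.642, 1.14 and 1.33 for 4 fibroblast and smooth muscle genes, of which 0 passed. For the 14 immature T cell genes they were 0.317, 1.21 and 0.207. The neonatal medians of these 2 lists were -0.475 and -0.553. Of 7 endothelial genes tested, 5 rose and 1 fell in juveniles, 0 passed in neonates by edgeR (1 at an unadjusted p under 0.05), DESeq2 or limma voom, and 2 had a larger juvenile response. In NP against JP 0 passed by edgeR or limma voom and 3 by DESeq2, while 6 had an unadjusted p under 0.05 by edgeR, against 1973 of all 11062 genes. For 6 all NP libraries were above all JP libraries, against 9.82% of all genes tested. Of all genes tested, 15.4% rose and 9.42% fell in juveniles, 5.05% had a larger juvenile response and 2.32% were higher in NP than in JP. The median log2 values of the endothelial genes in the 4 comparisons were 2.18 in juveniles, -0.0063 in neonates, 2.58 for the difference and 1.91 in NP against JP. Kdr, a VEGF receptor of endothelium, had means of 5.65 ± 3.09 CPM in NP, 5.64 ± 4.27 in NE, 1.77 ± 0.195 in JP and 20.5 ± 9.71 in JE (SD, n = 3), and Cdh5, the endothelial cadherin, had 15.0, 8.61 and 30.9 CPM in the NP libraries, 5.49, 6.98 and 23.6 in NE, 6.34, 3.13 and 4.78 in JP and 20.2, 22.5 and 14.2 in JE. JP had the lowest mean in both. The endothelial list summed to 276 to 315 CPM in NP, 254 to 300.3 in NE, 229 to 246 in JP and 228 to 252 in JE, most of it from Pecam1, the gene that fell. Of 6 lung epithelial genes tested, 2 rose in juveniles, 0 passed in neonates by edgeR (2 at an unadjusted p under 0.05), DESeq2 or limma voom, 1 had a larger juvenile response and 1 was higher in NP than in JP, with medians of 1.45, -0.16, 1.25 and 1.53. They summed to 46.5 to 83.6 CPM in NP, 63.1 to 173 in NE, 34.8 to 42.1 in JP and 91.1 to 206 in JE. Without NP library 1 and JP library 2, 3 endothelial and 3 lung epithelial genes rose in juveniles, where 1899 of 11264 genes tested rose. The part of these and the other cells in the mitosis results was not tested.

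Other genes of the cell cycle were described from lists of the same kind. The shares of all genes tested to set beside their counts are 15.4% higher and 9.42% lower in juveniles, 1.05% higher in neonates, 5.05% with a larger juvenile response and 2.32% higher in NP than in JP. Of 62 other G2/M genes, 45 rose and 0 fell in juveniles, 0 passed in neonates (2 at an unadjusted p under 0.05, DESeq2 called 0 and limma voom 1), 33 had a larger response in juveniles and 37 were higher in NP than in JP. Their median log2 values in these 4 comparisons were 0.97, -0.07, 1.02 and 0.93, close to the medians of the 48 genes. The smallest p-values in juveniles belonged to Ncapg2, a condensin II subunit (log2 fold change 1.29 ± 0.14 SE, adjusted p = 1.32e-05), Kif14, a cytokinesis motor (log2 fold change 1.25 ± 0.15 SE, adjusted p = 2.49e-05), Cit, the citron kinase of cytokinesis (log2 fold change 1.17 ± 0.16 SE, adjusted p = 8.82e-05), and Stil, a centriole gene (log2 fold change 1.23 ± 0.17 SE, adjusted p = 9.99e-05). Hmgb2, a chromatin protein of dividing cells, and Ckap5, a microtubule polymerase, had neonatal values of -0.52 ± 0.20 and -0.30 ± 0.11 that did not pass (adjusted p = 0.298 and 0.284).

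S phase genes followed with smaller values. Of 37, 23 rose in juveniles, 0 passed in neonates (2 at an unadjusted p under 0.05, DESeq2 called 0 and limma voom 1), 9 had a larger juvenile response and 13 were higher in NP than in JP, with medians of 0.67, -0.03, 0.66 and 0.59. Clspn, the adaptor of the replication checkpoint, had the smallest p in juveniles (log2 fold change 1.40 ± 0.17 SE, adjusted p = 4.08e-05), ahead of the polymerase genes Pola1 and Pole (0.82 and 0.88). Mcm5, a subunit of the replicative helicase, rose by 0.67 ± 0.19 (adjusted p = 0.0197). Pcna, the polymerase clamp, did not pass, with 316, 468 and 286 CPM in JP and 504, 418 and 374 CPM in JE (log2 fold change 0.28 ± 0.14 SE, adjusted p = 0.178). The sum of the 48 mitosis genes over that of the S phase genes was 3.25 ± 0.165 in NP, 2.91 ± 0.0987 in NE, 2.82 ± 0.215 in JP and 3.10 ± 0.0833 in JE, and the JP and JE libraries overlapped in this ratio.

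Genes of the G1 step moved in part. Of 16 G1 cyclins, CDKs and E2F genes 7 rose in juveniles, 0 passed in neonates (2 at an unadjusted p under 0.05, DESeq2 and limma voom each called 1), and 3 were higher and 1 lower in NP than in JP. Ccnd1, cyclin D1, rose in juveniles from 27.4 ± 3.16 to 68.1 ± 15.3 CPM (log2 fold change 1.32 ± 0.19 SE, adjusted p = 0.000169), while the other D cyclins Ccnd2 and Ccnd3 did not pass (-0.04 ± 0.07 and -0.09 ± 0.13, adjusted p = 0.743 and 0.643). Ccnd2 was the gene lower in NP than in JP (log2 fold change -0.40 ± 0.07 SE, adjusted p = 0.00653). The repressors E2f7 and E2f8 rose in juveniles by 1.34 ± 0.17 and 1.26 ± 0.19, and E2f1, an activator of S phase genes, did not pass (0.60 ± 0.25, adjusted p = 0.0924).

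Cdkn1a, the CDK inhibitor p21, was the one cell cycle gene of these lists that rose at both ages. It had 6.99, 8.06 and 4.41 CPM in NP, 16.3, 18.3 and 18.9 in NE, 1.44, 2.64 and 2.87 in JP and 25.6, 22.6 and 23.4 in JE. Every E. coli library was above every PBS library, with log2 fold change 1.45 ± 0.21 SE, adjusted p = 0.003 in neonates and log2 fold change 3.37 ± 0.24 SE, adjusted p = 5.44e-07 in juveniles, and a difference of responses of 1.93 ± 0.33 (adjusted p = 0.00324). Cdkn2c, an inhibitor of CDK4 and CDK6, rose in juveniles (log2 fold change 0.79 ± 0.18 SE, adjusted p = 0.00448), while Cdkn1b, p27, and Klf2, a quiescence factor of T cells, fell (-0.35 and -1.10, adjusted p = 0.0217 and 0.000319). Cdkn2d did not pass at either age (0.56 and 0.43). In all, 2 of 14 tested genes of CDK inhibition and quiescence rose in juveniles and 3 fell, where 15.4% of all genes tested rose and 9.42% fell. The share that rose was near that of all genes. Of the 14, 2 had a larger juvenile response and 4 a smaller response, against 5.05% and 1.94% of all genes tested.

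Of 14 genes of the MuvB complex and its partners 5 rose in juveniles and 1 was higher in NP than in JP, with median log2 values of 0.17 and 0.12. Mybl2, which encodes the B-MYB partner of MuvB, had 8.92, 8.06 and 8.17 CPM in NP, 8.43, 8.23 and 7.34 in NE, 3.03, 2.80 and 3.35 in JP and 9.68, 9.53 and 6.74 in JE. JP was below the other 9 libraries, library 2 included, and Mybl2 rose in juveniles (log2 fold change 1.49 ± 0.22 SE, adjusted p = 0.000179) and was higher in NP than in JP (log2 fold change 1.45 ± 0.22 SE, adjusted p = 0.00213). Lin54, the MuvB subunit that contacts DNA, rose in juveniles by 0.54 ± 0.09 (adjusted p = 0.000693). Of 14 genes listed for the anaphase-promoting complex, its activator Fzr1 among them, 0 rose and 1, Anapc11, fell in juveniles (log2 fold change -0.70 ± 0.19 SE, adjusted p = 0.0152). In NP against JP 1 of the 14, Cdc23, was higher (log2 fold change 0.45 ± 0.11 SE, adjusted p = 0.0348) and 0 were lower. Over all genes tested 2.32% were higher there. Of 11 cohesin genes 0 passed in any of the 5 comparisons by edgeR. In the juvenile response 1 of them had an unadjusted p under 0.05, DESeq2 called 0 and limma voom 3. In neonates all NE libraries were below all NP libraries for 7 of the 11, against 10.6% of all genes tested, and above for 0. In NP against JP 4 of the 11 had an unadjusted p under 0.05 by edgeR, against 1973 of all 11062 genes.

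Some values carry a limit of counting. The library kit does not mark strand, and several of these genes share exon bases with a neighbour on the other strand that is also in the table: Kif20a with Cdc23 (29.3% of its exon bases), Ube2c with Tnnc2 (22.8%), Kif4 with Pdzd11 (15.1%), Ncapg with Lcorl (13.4%), Ccna2 with Exosc9 (12.5%) and Prc1 with Rccd1 (11.1%). Reads there could be counted to either gene.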

How the data were processed

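RNA was measured in 12 libraries of sorted lung CD4+ T cells. Per the labels' protocols, cDNA came from a Nugen Ovation V2 kit, which does not mark strand, and sequenced as paired ends of 100 bases. Per the submitters' processing notes, the tools were CASAVA 1.8.4 and STAR, with GRCm38 (mm10) as the build. The deposited values are raw counts per gene symbol that the authors made, with SeqMonk by the table's name; the sources used here do not give its settings or annotation.

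Genes of low count were dropped by filterByExpr (at least 10 counts in enough libraries and 15 in total), which left 11062 of 19434 genes and 99.9% of counts. All 12 libraries entered 1 model of the 4 groups, scaled by TMM, and contrasts were tested by the quasi-likelihood F test of edgeR 4.0.16 in R 4.3.3, two-sided, with Benjamini-Hochberg adjustment over all 11062 genes and a threshold of 0.05. The common biological coefficient of variation was 0.123. The labels call the replicates pools of mice, and groups come from the labels. Gene positions and exon lengths are from GENCODE M21, promoters from RefSeq (GRCm38.p6), and 331 of 340 list symbols were in the table.

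Alternatives were 2 other scalings (upper quartile and RLE), voom with sample weights in limma 3.58.1, DESeq2 1.42.0, no filter, only the groups compared, a replicate block, an immature T cell score as a term, NP library 1 and JP library 2 left out together, and each library left out in turn. Genes with full values are a panel spread over the roles, the 3 highest and 3 lowest genes of each comparison, up to 4 genes of smallest p per pathway list and a set of named cell cycle regulators. The markers Cd3d, Kdr and Cdh5 were chosen after their values were seen, as was leaving out NP library 1 and JP library 2 together. Rag1, Rag2 and Dntt were named from the immature T cell list, outside the rule for full values. The 48 genes, the lists and this rule were chosen with earlier results of these data known. Same-numbered libraries did not deviate together (correlations of -0.19 to 0.209, over 0.1 in 3 of 18 pairs), so numbers were not taken as pairs.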

Additional observations from a re-analysis of the deposited data

Results flagged for a closer look

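The responses of the ages to E. coli differed for 31 of the 48 genes by the test of the difference itself (juvenile minus neonatal log2 fold change, edgeR, adjusted p under 0.05), all larger in juveniles. No explanation was weighed. Among cyclins, CDK1 and entry switches, the differences were 1.14 for Cdk1, 1.11 for Ccna2, 1.30 for Ccnb1 and 0.917 for Foxm1. Among the kinases they were 1.32 for Plk1 and 0.991 for Plk4, and in the passenger complex 1.02 for Cdca8. In the spindle checkpoint they were 1.04 for Bub1, 1.01 for Bub1b and 0.85 for Mad2l1. At the kinetochore they were 1.86 for Cenpe, 1.62 for Cenpf, 0.847 for Ndc80, 1.04 for Nuf2 and 1.34 for Spc24.

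Spindle motors and microtubule binders had differences of 1.23 for Kif11, 1.35 for Kif15, 1.32 for Kif2c, 1.23 for Kif4, 1.29 for Tpx2, 1.22 for Nusap1 and 1.20 for Hmmr. In cytokinesis they were 0.767 for Kif23, 0.935 for Prc1, 1.12 for Anln and 1.02 for Ect2. Chromosome structure genes had 1.81 for Mki67, 1.11 for Top2a, 1.02 for Smc2 and 0.925 for Ncapd2, and Ube2c had 1.06. With 1 library left out the number of such genes ran from 13 to 43, and Cenpe, Cenpf and Mki67 passed in all 20 alternatives.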

How the results depend on the processing

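With 1 library left out in turn, the genes of the 48 called higher ran from 29 to 45 in the juvenile response, 13 to 43 in the difference of responses and 15 to 46 in neonates against juveniles after PBS, against reported counts of 41, 31 and 37. Those called lower ran from 0 to 1 in juveniles, 0 to 2 in neonates and 0 to 3 in neonates against juveniles after E. coli. Over all genes the calls ran from 55 to 238 in neonates (132 as reported), 1656 to 3204 in juveniles (2747), 368 to 1553 in the difference (774), 177 to 671 after PBS (451) and 1108 to 2637 after E. coli (1964). A left-out library leaves 2 in its group, and the cause of each move beyond that was not tested.

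Limma voom with sample weights called 2 of the 48 lower in neonates and 4 lower in neonates against juveniles after E. coli, and 312, 4480, 2300, 927 and 3810 of all genes in the 5 comparisons in the order neonatal, juvenile, difference, after PBS and after E. coli. DESeq2 called 238 of all genes in neonates and 729 after PBS. With only the groups compared, 3 of the 48 were lower in neonates and 0 in juveniles, and 320 of all genes were called in neonates and 280 after PBS. With the immature T cell score as a term, 3 of the 48 had a larger juvenile response, 0 were lower in neonates, and 2 were higher and 0 lower in neonates against juveniles after E. coli, with 68, 214 and 1021 of all genes called in neonates, the difference and after E. coli. Without NP library 1 and JP library 2 together, 0 were lower in juveniles. For none of these was the cause tested.

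Replicate numbers were not taken as pairs because same-numbered libraries did not deviate together, which cannot show how the pools were handled. With the replicate block 42 of the 48 rose and 1 fell in juveniles, 28 had a larger juvenile response and 37 were higher in neonates after PBS. In the same fit 1 was higher and 2 lower in neonates after E. coli, and 0 fell in neonates, where Cdc25b lost its call. No value of the 48 genes past the threshold changed its direction under any alternative run, and the other alternatives moved no count of the 48 by over 1.5 times. Depth limits the less abundant genes most, and n = 3 pools per group limits every test.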
